A study of Mus musculus with 6 samples.

Results

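Midline thalamus spots were chosen by their counts of 5 genes. They were, in each section, the 80 spots with the highest score on Calb2, Gbx2, Necab1, Slitrk6 and Zic1, among spots with at least 500 UMIs (unique molecular identifiers, 1 for each captured transcript). The score was the sum over the 5 genes of log1p(UMIs × 10000 / spot total). This gave 480 member spots of 16741. The data are Visium spatial RNA sequencing, in which a tissue section lies on an array of barcoded capture spots and captured transcripts are counted by UMI. A spot covers several cells, so every value below describes small areas of tissue and not single neurons. The tissue was frozen brain of male C57BL/6J mice, an inbred strain with no transgene or treatment named, cut coronally at about 1.655 mm behind bregma. Groups were young (6 months), middle (18 months) and old (21 months), with 2 sections each and 2 males per age; which animal gave which section is not stated, so p-values measure the spread between these sections. Both young sections, middle 1 and old 1 lay on slide 1, and middle 2 and old 2 on slide 2. Other spots are all kept spots of the same section that are not members. As the nearest comparison within the thalamus, 80 relay thalamus spots per section were taken from the non-members by the same score on Prkcd, Ramp3, Plekhg1, Tnnt1 and Rgs16.

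The midline nuclei of the thalamus lie beside the third ventricle and differ from the relay nuclei on their flanks. Relay nuclei pass sensory and motor signals to defined cortical areas, whereas midline nuclei receive arousal, visceral and stress-related input from the brainstem and hypothalamus and project widely to prefrontal cortex, striatum and amygdala. Their neurons are glutamatergic, use the vesicular transporter Slc17a6 (Vglut2) more than Slc17a7 (Vglut1), and often hold the calcium-binding proteins calretinin (Calb2) and calbindin (Calb1).

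UMIs were summed over the 80 members of a section, and levels are CPM, UMIs per 1000000 UMIs of that sum. The sums held 1471563 to 2574366 UMIs. Young sections had a median of 28962 ± 3776 UMIs per member spot (SD, n = 2), middle sections 24818 ± 1447 (SD, n = 2) and old sections 21394 ± 4682 (SD, n = 2). The difference across ages gave p = 0.20 in an exact permutation test over 90 assignments (sum of squares between groups, smallest possible p 0.067). The same permutation test gave p = 0.067 with 160 spots per section and p = 0.40 with 40. Fewer cells of a type and less RNA per cell cannot be told apart in such sums. Sections shared 80.9% to 98.7% of their spot barcodes, since arrays carry one barcode set that marks positions; 343 distinct barcodes stood behind the 480 members. Replicate sections of a group differed by more than counting error, with a chi-square per degree of freedom of 4.94 in young, 5.63 in middle and 2.72 in old.

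The 5 genes of the rule chose the spots, so their levels are a description. Calb2 encodes calretinin and was read at 647 and 1255 CPM in young, 531 and 1542 in middle and 1205 and 1487 in old members. Young 1 and middle 1 were low and the other 4 sections high, and the 3 ages overlapped. Gbx2, a homeobox factor needed for thalamic development, had 123 and 150.2 CPM in young, 124 and 224 in middle and 203 and 161 in old members. Necab1, a neuronal calcium-binding protein, ranged over 453 to 664 CPM, and Slitrk6, a membrane protein that shapes neurite growth, over 62.9 to 94.7 CPM. Zic1, a zinc-finger factor of the dorsal brain, ran from 224 CPM in old 2 to 468 CPM in middle 1. The median ratio of members to other spots was 33.5 for Gbx2, 17.7 for Calb2, 14.4 for Slitrk6, 6.99 for Necab1 and 6.81 for Zic1.

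**Figure D1:**
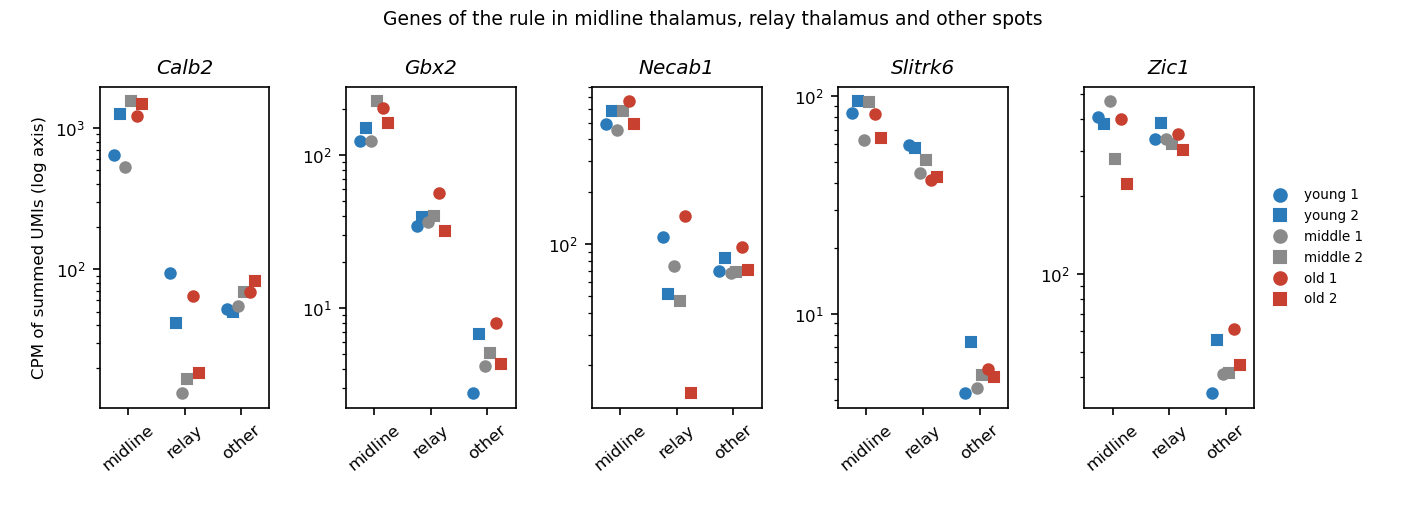
Levels of the 5 genes of the rule in midline thalamus spots, relay thalamus spots and other spots. Each point is the CPM of 1 section on a log axis, coloured by age with circles for replicate 1 and squares for replicate 2. Calb2, Gbx2 and Necab1 are higher in midline than in relay spots in all 6 sections, whereas Zic1 points of midline and relay spots interleave.

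The 5 genes did not divide the thalamus in the same way. Against relay thalamus spots the median ratio was 35.1 for Calb2, 8.70 for Necab1, 3.70 for Gbx2 and 1.57 for Slitrk6, but 1.07 for Zic1, which was above relay spots in 3 of 6 sections. Across spots, the genes whose scaled values were most like Zic1 were Tcf7l2 (mean Pearson r 0.785 over 6 sections), a transcription factor of thalamus and habenula, the relay kinase Prkcd (0.702) and Shox2 (0.694). Calb2 was most like Zcchc12 (0.581), Tmem130 (0.536) and Resp18 (0.529). Gbx2 was most like Tcf7l2 (0.611), Ntng1 (0.556) and Shox2 (0.550), and Slitrk6 like the same 3 genes (0.615, 0.599 and 0.579). Necab1 was most like Gbx2 (0.465), Cpne7 (0.425) and Stum (0.413). Spots of 1 section share a library and neighbouring spots share tissue, so these correlations are descriptions.

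Members differed in how fully they met the rule. All 5 genes were detected in 360 members, 4 genes in 103 and fewer in 17, while 233 other spots also held all 5. Middle 1 had 44 members with all 5 genes and old 2 had 47, against 59 to 73 in the other 4 sections. The threshold fell within a continuum of scores. The lowest member and the highest non-member scored 5.09 and 5.06 in young 1, 5.83 and 5.82 in young 2, 4.78 and 4.77 in middle 1, 5.77 and 5.72 in middle 2, 6.52 and 6.51 in old 1, and 5.584 and 5.584 in old 2.

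Thalamic identity was visible in genes outside the rule. Slc17a6 had 461 and 619 CPM in young, 421 and 618 in middle and 583 and 559.9 in old members, against 63.9 to 82.8 in other spots. More Slc17a6 than Slc17a7 UMIs were counted in 434 of 480 members, with 58 of 80 in middle 1 and 73 to 78 of 80 elsewhere, against 18.1% to 21.1% of other spots. Tcf7l2 averaged 724 ± 83.8 CPM (SD, n = 6) in members, 559.9 ± 58.5 CPM in relay spots and 66.02 ± 15.8 CPM in other spots. Of 10 markers of thalamic glutamatergic neurons, 9 were above other spots in all 6 sections, where 26.5% of all 11677 genes tested were; the exception was Lhx2. Of 10 markers of GABAergic neurons, reticular thalamus and zona incerta, 9 were below other spots in all 6 sections (16.5% of all genes). Gad1, which makes GABA, had 8.995 to 20.2 CPM in members and 253 to 329 in other spots.

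Markers of the midline that the rule did not use gave a mixed picture. Of 12 such genes, 3 were above other spots in all 6 sections: Htr7, a serotonin receptor (27.1 to 58.8 CPM against 7.35 to 10.4), Calb1 (267 to 434 against 118 to 146) and the collagen Col12a1 (4.603 to 33.1 against 4.47 to 6.58). Drd3 had no UMI in any member, and Nts, neurotensin, had 0.512 to 4.76 CPM in members and 9.94 to 22.9 in other spots. Against relay spots 5 of the 12 were higher in all 6 sections, where 22.3% of all genes were, and none was lower in all 6. Of 7 relay thalamus markers, 6 were above other spots in all 6 sections, where 26.5% of all genes tested were. Their median ratio to other spots was 3.8, against 1.12 for the 12 midline markers. The same list had 6 of 7 below relay spots in all 6 sections, but 5 of its genes chose the relay spots. The members thus carried thalamic markers in each section, relay markers among them, while most of these midline markers did not separate them from other spots.

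**Figure D2:**
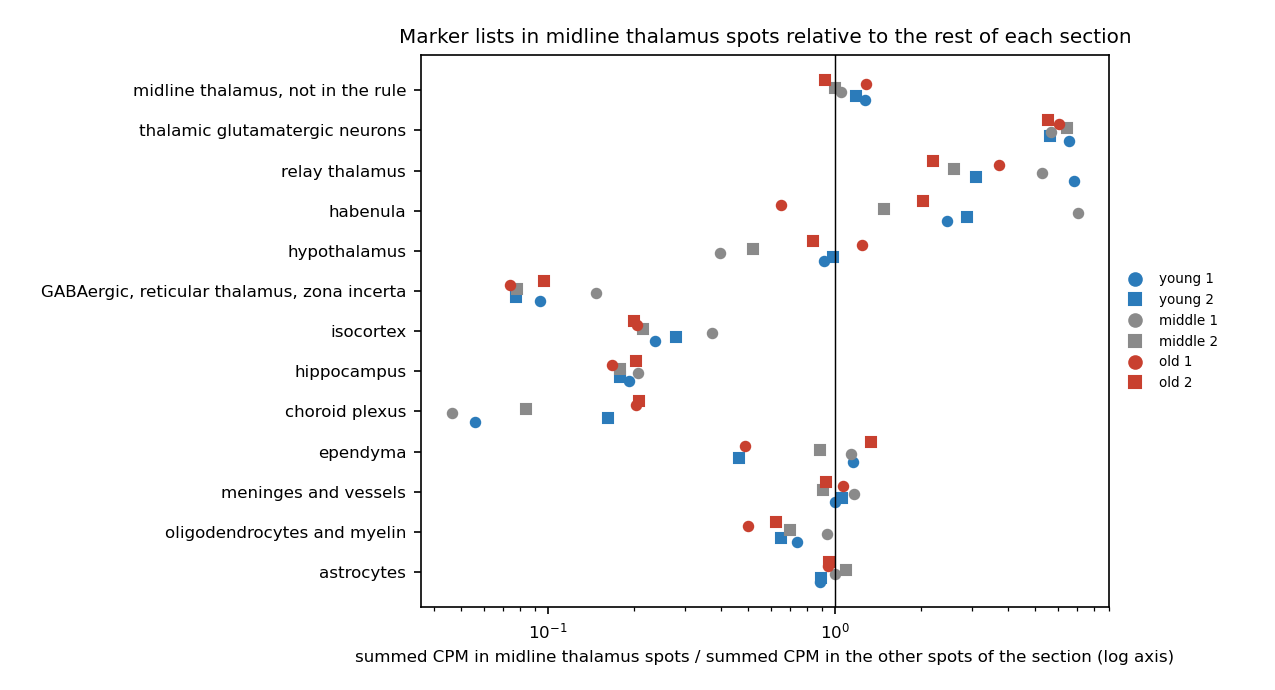
Summed CPM of marker lists in midline thalamus spots divided by the summed CPM in the other spots of the same section (log axis, line at 1), with each point 1 section. Thalamic glutamatergic markers lie above 1 and GABAergic, isocortical, hippocampal and choroid plexus markers below 1 in all 6 sections. For habenula markers the sums behind the ratio were 86.7 CPM in members and 134 in other spots of old 1. In middle 1 they were 633 and 89.9 CPM.

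Above other spots in all 6 sections and by over 2 times in the median were 494 genes (4.23%). Among the 15 with the largest ratio, 8 were in none of the gene lists used here: D130058E05Rik, Sntb1, Maob, Mcub, Fbln5, Defb1, Fbln1 and Igkc. Maob encodes monoamine oxidase B and had 126 and 150.2 CPM in young, 79.8 and 231 in middle and 233 and 223 in old members (median ratio 8.57). Fbln1 and Fbln5 encode fibulins of the extracellular matrix, with median ratios of 7.64 and 8.38. Mcub, a subunit of the mitochondrial calcium uniporter, had a ratio of 8.43, and Lhx9, a LIM homeobox factor, had 79.8 to 109.8 CPM and a ratio of 13.0. Zic4 and Zic5, relatives of Zic1, had ratios of 9.01 and 10.2.

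Igkc, the constant region of the immunoglobulin kappa light chain, stood second in that order. It had 10.1 and 23 CPM in young, 11.3 and 39.8 in middle and 31.5 and 33.3 in old members, against 0.444 to 3.09 CPM in other spots (median ratio 18.1). The 294 Igkc UMIs in members came from 12 to 37 spots per section, with at most 8 in 1 spot. Defining B cell transcripts, listed after Igkc had been seen, were at or near 0 in members: Ms4a1 and Cd79b had 0 UMIs over all 6 sections, Cd79a had 5 and the plasma cell gene Jchain had 11. They were rare in other spots too. Over all sections Cd79a had 0.406 CPM in members and 0.375 in other spots, and Jchain 0.894 and 0.727. Cd79b had 0 and 0.255 CPM, and Ms4a1 0 and 0.026. The low counts therefore do not show that B cell transcripts are scarcer in members than elsewhere. The heavy chain Ighm had 5.41 to 12.2 CPM in members and 25.9 to 36.2 in other spots. Old against young, Igkc differed by 0.95 on the log2 scale (SE 0.61, edgeR adjusted p = 0.965).

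Of 20 peptide and monoamine receptors, 10 were above relay spots in all 6 sections and 1 was below in all 6. The share above was 22.3% over genes that passed the filter on low counts, which 10 of the 20 receptors did not, Hcrtr2 and Galr1 among those above. Hcrtr1, Drd2, Drd3, Npffr1 and Htr7 are also in the list of midline markers described before. Against other spots, 4 of the 20 were above in all 6 sections (26.5% of genes that passed the filter) and 4 below (16.5%). Htr2c, a serotonin receptor, had 94.4 to 175 CPM in members and 7.86 to 35.03 in relay spots. Oprk1, the kappa opioid receptor, had 4.09 to 22.7 against 0 to 1.199 CPM, Tacr3, the neurokinin B receptor, 2.56 to 13.1 against 0 to 1.37, and Galr1, a galanin receptor, 1.36 to 5.41 CPM against 0 UMIs in relay spots of every section. Adra1b, an adrenergic receptor, was the exception with 47.6 to 94.1 CPM in members and 94.9 to 128 in relay spots. Habenula markers were also above relay spots, 7 of 8 in all 6 sections, and their part in the receptor values was not tested. Ion channels of thalamic firing went the other way, with 6 of 14 below relay spots in all 6 sections (12.1% of all genes) and 2 above. Kcnc2, a fast delayed-rectifier potassium channel, had 188 to 277 CPM in members and 424 to 466 in relay spots, and Hcn2, a pacemaker channel, 123 to 226 against 304 to 378. Cacna1g, the T-type calcium channel of burst firing, had 119 to 169.5 CPM in members and 146 to 229.7 in relay spots.

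Markers of neighbouring tissue differed between sections. Prkcd had 361 and 509 CPM in young, 677 and 261 in middle and 294 and 215 in old members, so that both young sections and middle 1 were above the other sections. Zcchc12, the gene most like Calb2, was ordered the other way, with 176 and 276 CPM in young, 176 and 405 in middle and 347 and 360.2 in old members. The first principal component of the member sums (32.9% of the variance) also put young 1, young 2 and middle 1 (-12.04, -2.19 and -30.3) on one side of middle 2, old 1 and old 2 (15.2, 8.95 and 20.4). This split follows neither age nor slide exactly, and it moves with each age comparison.

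Genes of neighbouring structures were found among the members, at levels that differed between sections. The 8 habenula markers summed to 86.7 to 633 CPM in members, 2.89 to 19.9 in relay spots and 67.5 to 134 in other spots. Of these markers 7 were above relay spots in all 6 sections, where 22.3% of all genes tested were, and 2 were above other spots in all 6. The habenula gene Tac2, neurokinin B, had 258 CPM in middle 1, where 5 spots held 84.7% of it, and 129 CPM in young 2, where 5 spots held 97.5%. Gpr151 and Pou4f1, both habenular, were also highest in middle 1 (63.4 and 34.8 CPM). Oxt and Avp, peptides of magnocellular hypothalamic neurons, had 357 and 256 CPM in old 1, 87.4 and 8.16 in young 1 and at most 8.695 in the other 4 sections. In old 1 they were spread over many members, with Oxt in 61 and Avp in 63 of 80 spots and 48.5% and 48.1% of the UMIs in the top 5 spots, and in young 1 Oxt was in 48 spots. In other spots of young 1 and old 1 the lateral hypothalamic peptide Pmch was at 0.632 and 0.731 CPM, against 189.6 to 955 CPM in the remaining 4 sections. Of 8 tested hypothalamic markers, 7 were positive from young to old in members (median 0.77 on the log2 scale, 4 without overlap, as 22.6% of all genes were in this direction) and none was called; the median was 0.49 with slide as a block and 0.37 with a score without Calb2. The part of these neighbours in the comparisons below was not tested.

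From young to old members 3 genes of 11677 changed, 0.0257% of those tested, and all 3 fell (edgeR, quasi-likelihood; adjusted p, by Benjamini-Hochberg over all genes, under 0.05). Hspa1b and Hspa1a encode the inducible Hsp70 chaperones, which cells make when proteins unfold, and Sgk1 encodes a kinase induced by glucocorticoids. Hspa1b had 38.8 and 33.8 CPM in young, 5.63 and 5.68 in middle and 4.57 and 3.398 in old members (100, 75, 11, 12, 9 and 5 UMIs). Both young sections stood above all 4 others. It fell by 3.20 on the log2 scale from young to old (SE 0.32, edgeR adjusted p = 0.0015). Hspa1a had 45.1 and 53.7 CPM in young, 6.14 and 11.8 in middle and 15.2 and 8.83 in old members, and fell by 2.03 (SE 0.28, edgeR adjusted p = 0.0306). Sgk1 (chromosome 10, 21882184 to 21999903, GRCm38) had 122 and 145 CPM in young, 50.6 and 59.2 in middle and 58.8 and 69.99 in old members, and fell by 1.09 (SE 0.16, edgeR adjusted p = 0.0321).

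Middle against young also gave Hspa1b, Hspa1a and Sgk1, 0.0257% of genes, all lower in middle members. Hspa1b fell by 2.73 (SE 0.29, edgeR adjusted p = 0.00297), Hspa1a by 2.48 (SE 0.29, edgeR adjusted p = 0.00389) and Sgk1 by 1.32 (SE 0.16, edgeR adjusted p = 0.00389). In other spots 0.0227% of 17624 genes were called in this comparison. Both comparisons use the 2 young sections. Old against middle called 0 genes in edgeR and 0 in DESeq2, with 368 and 79 genes at an unadjusted p under 0.05. The calls against young rest on few sections. Without young 1, young 2, old 1 and old 2 in turn, Hspa1b changed by -3.035, -3.344, -3.434 and -3.048 from young to old. In the same order Hspa1a changed by -2.108, -1.967, -2.502 and -1.754, and Sgk1 by -1.164, -1.023, -0.955 and -1.239. Each of these fits left 1 section in a group. The calls changed in each, and without old 2 they were not confined to these genes. Middle against young gave 0 without young 1, 1 without young 2 and 9 without middle 2, and old against middle gave 99 without middle 2. On slide 1 alone, Hspa1b was 38.8 and 33.8 CPM in young 1 and young 2 against 5.63 in middle 1 and 4.57 in old 1.

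Hspa1a and Hspa1b lie next to each other on chromosome 17 (GRCm38, 34969190 to 34972156 and 34956436 to 34959238, minus strand) and are near-identical, so the division of reads between them is uncertain. Their promoters are shown because both genes fell. Each line gives the 250 bases before the RefSeq start (GRCm38.p6, minus strand, chr17:34972157-34972406 for Hspa1a and chr17:34959239-34959488 for Hspa1b), with the heat shock element core GAANNTTC in capitals.
Hspa1a: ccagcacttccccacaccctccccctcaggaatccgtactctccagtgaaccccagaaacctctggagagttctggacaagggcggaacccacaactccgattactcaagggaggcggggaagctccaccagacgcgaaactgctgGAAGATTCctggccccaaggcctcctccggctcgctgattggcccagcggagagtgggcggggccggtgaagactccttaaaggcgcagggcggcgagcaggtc
Hspa1b: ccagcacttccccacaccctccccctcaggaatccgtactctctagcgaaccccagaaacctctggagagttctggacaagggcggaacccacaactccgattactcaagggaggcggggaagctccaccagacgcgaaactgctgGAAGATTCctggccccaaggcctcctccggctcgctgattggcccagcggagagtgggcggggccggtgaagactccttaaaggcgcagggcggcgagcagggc
The windows differ at 3 bases, C44T, T47C and T249G, counted from the 5′ end with the Hspa1a base first. GAANNTTC, which reads the same on both strands, occurs once in each window, 104 bases before the start, and in 6.69% of 32851 promoter windows of the same length. A match is a description of these letters only.

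**Figure D3:**
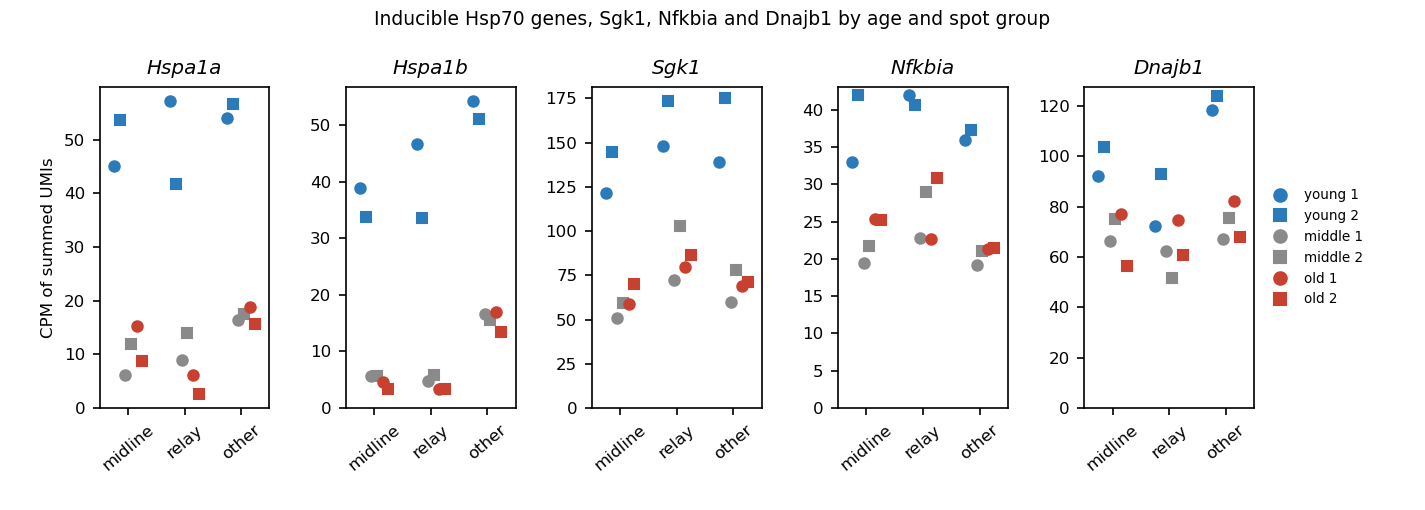
CPM of Hspa1a, Hspa1b, Sgk1, Nfkbia and Dnajb1 in midline thalamus, relay thalamus and other spots, with each point 1 section and the axis from 0. For Hspa1a, Hspa1b and Sgk1 both young sections stand above the middle and old sections in all 3 groups of spots.

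These 3 genes also fell outside the midline. In other spots Hspa1b fell by 1.84 (SE 0.11, edgeR adjusted p = 0.0065), Hspa1a by 1.73 (SE 0.08, edgeR adjusted p = 0.000377) and Sgk1 by 1.22 (SE 0.13, edgeR adjusted p = 0.046), where 0.193% of 17624 genes were called. In relay spots the values were -3.62, -3.55 and -1.01, all called, where 0.0735% of 10888 genes were. The relay spots were not alike across sections. More Slc17a6 than Slc17a7 UMIs were counted in 71 of 80 in young 1 and in 25 to 39 elsewhere. The 7 relay markers summed to 2089 CPM in young 1 and to 3532 to 4624 elsewhere. The part of this in the relay changes, here and below, was not tested, and those changes were not refitted with a section left out. The old against young change of members was then tested against that of other spots with section as a block. No gene of 17282 was called (0%; 657 at an unadjusted p under 0.05, and 0 called with DESeq2, 211 unadjusted). For Hspa1b the difference was -1.42 (SE 0.34, edgeR adjusted p = 0.471). The smallest adjusted p belonged to Hpcal1, a neuronal calcium sensor named here after its value was seen, with 12.04 and 17.6 CPM in young and 28.9 and 57.8 in old members and a difference of 1.38 (SE 0.25, edgeR adjusted p = 0.0804). Against relay spots 0 of 11832 genes were called (0%; 494 unadjusted, and 0 with DESeq2, 40 unadjusted). The count against other spots ran from 1 to 69 when each section was left out (59 without young 2, 69 without middle 1, 66 without middle 2, 8 without old 1, 11 without old 2, 1 without young 1).

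Of 10 heat shock genes, 2 fell, none rose and 9 had a negative value, with a median of -0.27 against 0.0036 over all genes tested. Besides the 2 Hsp70 genes, 3 more had both old sections below both young ones (13.7% of all genes did), among them Dnajb1, an Hsp40 co-chaperone (92.1 and 104 CPM in young and 77.1 and 56.4 in old members; -0.58, SE 0.17, edgeR adjusted p = 0.965). Hspa8, the constitutive Hsc70, had 2052 to 2253 CPM over the 6 sections (-0.05, SE 0.16, edgeR adjusted p = 0.99). From young to middle 6 of the 10 had both middle sections below both young ones (9.7% of all genes did), with a median of -0.27. Of 8 tested genes of glucocorticoid response and NF-kB feedback, Sgk1 fell and all 8 were negative, with a median of -0.49. Nfkbia, the NF-kB inhibitor, had 33.02 and 41.9 CPM in young, 19.4 and 21.8 in middle and 25.4 and 25.1 in old members (-0.61, SE 0.20, edgeR adjusted p = 0.965). Fkbp5 and Per1, both induced by glucocorticoids, showed -0.10 (SE 0.27) and -0.04 (SE 0.19).

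No microglial or complement gene passed the test in members. Of 18 tested, 16 were positive and 12 had both old sections above both young ones, where 22.6% of all genes did; the median was 0.47 in members and 0.58 in other spots, where 3 of 20 were called. C4b, complement component 4, had 7.38 and 5.41 CPM in young, 18.4 and 11.4 in middle and 13.7 and 23.1 in old members (1.43, SE 0.39, edgeR adjusted p = 0.965). Other spots had 23.9 and 16.8 CPM in young and 78.8 and 106 in old sections (2.13, SE 0.25, edgeR adjusted p = 0.122). In relay spots C4b rose by 2.70 (SE 0.39, edgeR adjusted p = 0.00413), and the difference of the members' change from that of relay spots was -1.21 (SE 0.51, edgeR adjusted p = 0.998). C1qb, a chain of the complement initiator C1q, had 66.8 and 44.2 CPM in young and 91.3 and 95.8 in old members (0.69, SE 0.20, edgeR adjusted p = 0.965). Trem2 and Tyrobp, a microglial receptor and its adaptor, showed 0.84 and 0.58. The 2 negative genes were Il33 (-0.39, SE 0.25, edgeR adjusted p = 0.965) and Serpina3n, a reactive astrocyte gene, with 12.04 and 8.12 CPM in young and 9.13 and 10.2 in old members (-0.13, SE 0.37, edgeR adjusted p = 0.989). From young to middle 14 were positive and 9 had both middle sections above both young ones (18% of all genes). In 17 of the 20 genes, members lay below other spots in all 6 sections (16.5% of all genes). Against relay spots, 2 of the 20 were below in all 6 sections (12.1% of all genes) and 1 was above (22.3%).

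**Figure D4:**
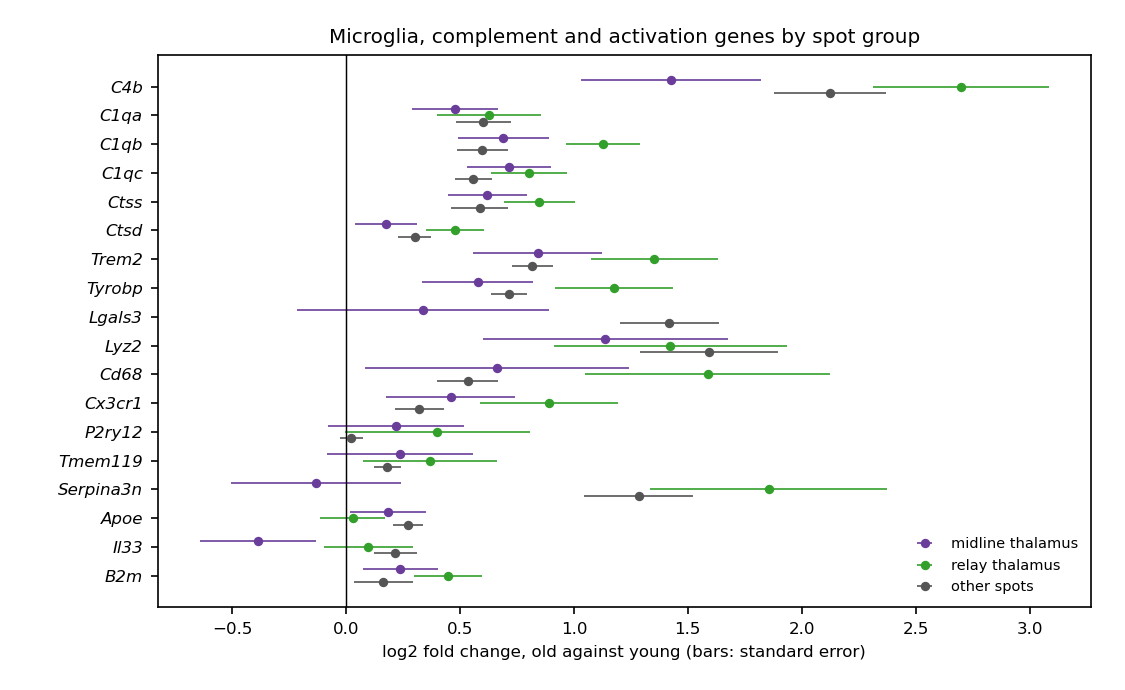
Log2 fold change, old against young, of 18 microglia, complement and activation genes in midline thalamus, relay thalamus and other spots, with bars of 1 standard error. In members 16 of 18 points lie above 0 and none passed the test; Lgals3 was not tested in relay spots.

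Interferon-induced genes were high in the members of 1 section. Ifit3, an antiviral effector, had 4.27 and 4.96 CPM in young, 9.72 and 8.05 in middle and 38.04 and 7.48 in old members. Bst2, which tethers virus particles, had 28.4 CPM in old 1 and 4.06 to 8.05 in the other 5 sections. The 7 tested genes of interferon response and MHC class I were all positive from young to old, 4 without overlap (22.6% of all genes), with a median of 1.27 and none called. The median was 0.31 without old 1, 1.76 without old 2, and 0.66 without the member spots richest in interferon UMIs (9 in old 1 and 2 in middle 1). The other spots of old 1 had no such level, with 7.203 CPM of Ifit3.

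Within old 1 the signal was held by few spots. Summed over 7 interferon-induced genes, 17 of 80 members reached 5 UMIs, with 44 in the highest, against 2 to 8 members in the other sections and at most 8 UMIs. Those 17 spots, split off after their values were seen, had 109.8 CPM of Ifit3 and 87.4 of Bst2, against 11.2 and 6.28 in the other 63 members. Cd8a, Nkg7 and Ifng, genes of cytotoxic lymphocytes, had 0 UMIs in them, Cd3e 1, the chemokine Ccl5 7 and Cxcl10 8. Microglial genes went both ways: C1qc was 83.7 CPM in the 17 and 62.1 in the 63, C1qb 91.2 and 91.4, Ctss 111.6 and 82.98, P2ry12 24.2 and 13.95, and Cx3cr1 7.44 and 18.8. Among the rule genes, which had chosen the spots, Calb2 was 1838 and 968 CPM. Gbx2 (197 and 206 CPM), Necab1 (573 and 698), Slitrk6 (74.4 and 86.5) and Zic1 (372 and 411) were lower in the 17. Other spots with many interferon UMIs were present in every section, the highest with 53 to 90. At least 5 UMIs were reached by 428 other spots in old 1 and by 277 to 502 in the remaining sections. The sections held 2573 to 2973 kept spots, members included. The median depth was 31494 UMIs in the 17 spots and 22973 in the 63, and the part of depth in the split was not tested.

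**Figure D5:**
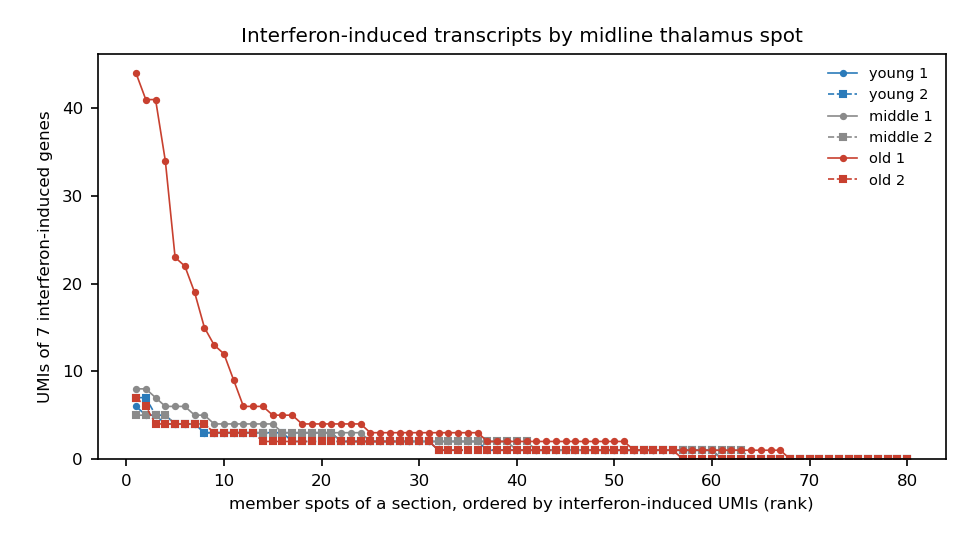
UMIs of 7 interferon-induced genes in each midline thalamus spot, ordered by rank within a section. Old 1 has 17 spots with at least 5 UMIs and a highest spot of 44, whereas no member of the other 5 sections exceeds 8.

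Among neuronal lists, no channel, synapse or receptor gene was called from young to old. Of 12 tested channels of thalamic firing, 10 were negative and 7 had both old sections below both young ones (13.7% of all genes), with a median of -0.37 in members and -0.08 in other spots; the members' median was -0.19 with a score without Calb2. Kcnc1, a fast potassium channel, had 137 and 127 CPM in young, 146 and 88.1 in middle and 98.4 and 76.8 in old members (-0.63, SE 0.24, edgeR adjusted p = 0.965). Kcnc2 had 249 and 277 CPM in young, 255 and 202 in middle and 217 and 188 in old members (-0.42, SE 0.15, edgeR adjusted p = 0.965). Young 1, young 2 and middle 1 were the high sections for both, as they were for Prkcd, which relay spots hold at 973 to 2425 CPM. The 7 relay markers had a median of -0.38 in members (-0.57 without old 1, -0.24 without old 2, -0.25 without young 2, -0.14 with slide as a block and -0.098 with a score without Calb2), and their part in the channel values was not tested. All 15 glutamate synapse genes were negative, with a median of -0.18 and 5 without overlap (13.7% of all genes). Without old 2 that median was -0.034 and without young 2 -0.12, each with 7 of 15 positive; it was -0.31 without old 1 and -0.056 with slide as a block. Snap25, which drives vesicle fusion, had 1910.2 to 2298 CPM over the 6 sections. Grin2b, an NMDA receptor subunit, had 90.5 and 113 CPM in young and 74.1 and 47.6 in old members (-0.76, SE 0.25, edgeR adjusted p = 0.965). The genes of the rule themselves differed from young to old by 0.48 for Calb2, 0.38 for Gbx2, 0.06 for Necab1, -0.31 for Slitrk6 and -0.38 for Zic1, a description of spots they had chosen. Of 10 tested peptide and monoamine receptors, 7 were positive (median 0.39) and none was called; the median was 0.66 without young 2 and turned to -0.029 with slide as a block and -0.095 with 40 spots per section. Htr7 stood at 30.7 and 39.2 CPM in young, 27.1 and 41.2 in middle and 58.8 and 46.2 in old members (0.56, SE 0.21, edgeR adjusted p = 0.965).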

How the data were processed

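Spatial RNA sequencing covered 6 coronal sections, 2 each at 6, 18 and 21 months. The authors deposited raw UMI counts per gene and spot, made with Space Ranger, version 1.3.1 per the file headers and 3.1 per the submitters' processing notes, which name mm10. Tissue images, spot positions and region labels were not used here. One spot each of middle 2 and old 2 had under 500 UMIs and was left out. Of 32285 gene identifiers, 32235 matched GENCODE M21 (GRCm38); promoters came from RefSeq. Member counts were summed per section and tested in edgeR 4.0.16 (robust quasi-likelihood) after its filterByExpr filter and TMM scaling, over the 6 sections and with no term but age; differences between spot groups were interactions with section as a block. Adjustment ran over all genes, two-sided. The 5 rule genes (and the 5 relay genes in that comparison) were not counted as calls.

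Member spots and lists were chosen with earlier results of these data known. Named genes were the rule genes, called genes, up to 4 abundant genes per list, the 15 largest ratios and the 3 genes most alike per rule gene; others were named to show a range, an exception or a neighbouring structure, after their values were seen. The fits were tested on simulated counts: the false share of calls was near the threshold when genes of a level shared a spread, and above it when each gene kept its own estimated spread, so adjusted p-values near 0.05 may be too small.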

Additional observations from a re-analysis of the deposited data

How the results depend on the processing

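The 3 calls of old against young were also made with DESeq2 1.42.0, RLE factors, 160 spots per section, a score without Calb2, only the 2 groups compared, no mitochondrially encoded and haemoglobin genes, and without the interferon-rich spots (chosen after seeing the data). The count was 49 with no filter on low counts (20 higher), 1 with counts thinned to the smallest total, 0 with 40 spots and 6 with slide as a block. Middle against young gave 13 with no filter and 0 with 40 spots, and old against middle 9 with no filter. Against other spots, 12 genes were called with 40 spots, 4 without Calb2, 21 among members with more Slc17a6 than Slc17a7 UMIs, 19 with no filter, 2 after thinning and 23 with only young and old sections. Against relay spots, 16 were called with no filter and 1 with only young and old sections.

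Leaving out each section in turn gave 0 to 3 calls in old against young, 0 to 9 in middle against young, 0 to 99 in old against middle, 1 to 69 against other spots, 0 to 5 against relay spots, and -10879 to -4258 UMIs for the old minus young median per spot, -7568 with all sections (-4258 without old 2 and -4899 without young 1). A lone section was assumed to vary like the other groups. Same-numbered sections correlated in their deviations at 0.121, 0.073 and 0.044 over 11682 genes. Young 1, middle 1 and old 1 also shared slide 1, and middle 2 and old 2 shared slide 2. What else a shared number stands for is not stated. With the replicate block, old against young gave 5 calls, middle against young 4 and old against middle 2. The causes of these moves were not tested. Hspa1b fell by 2.79 to 3.83 over 19 alternatives and was called in 16; Hspa1a and Sgk1 were each called in 14 of 20. The middle and old sums held 5 to 12 UMIs of Hspa1b, so its fold change is imprecise.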

Other observations

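The 8 myelin genes were all lower in old than in young members, with a median of -0.32 on the log2 scale and none called. Mbp, myelin basic protein, had 2340.0 and 1767 CPM in young, 2856 and 1990.2 in middle and 1473 and 2194 in old members. Old 1 had the lowest Mbp, and the list's median was -0.08 without it, -0.14 without young 1, -0.49 without young 2, -0.69 without old 2 and 0.02 with a score without Calb2. The 13 mitochondrially encoded genes were all negative (median -0.40, 10 without overlap against 13.7% of all genes, none called). The median was -0.62 without young 2 and -0.14, with 3 genes positive, without young 1, whose members gave 16.6% of their UMIs to these genes against 11.4% to 14.9% elsewhere.

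Astrocyte genes had a median of 0.14 from young to old, and of 0.035 without old 2. Gfap, the reactive astrocyte filament, had 15.5 and 22.1 CPM in young, 36.3 and 23.7 in middle and 17.8 and 34.7 in old members, a difference of 0.41 (SE 0.35, edgeR adjusted p = 0.965), and in relay spots it rose by 1.97 (SE 0.31, edgeR adjusted p = 0.0106). Among immediate early genes, which follow neuronal activity, Fos had 62.5 and 104 CPM in young, 36.8 and 102 in middle and 126 and 65.9 in old members. Junb had 12.4 and 17.1 CPM in young, 5.12 and 11.8 in middle and 31.95 and 25.1 in old members, without overlap between young and old (0.92, SE 0.30, edgeR adjusted p = 0.965). Of the 10 genes in that list, 7 were positive, 3 were higher without overlap (22.6% of all genes were) and none was called. Their median was 0.12 in members and -0.038 with a score without Calb2. In other spots it was -0.14, with 1 of 10 positive. Transthyretin (Ttr), made by the choroid plexus, had 178 and 410.4 CPM in young, 88.5 and 302 in middle and 852 and 812 in old members, and 2052 to 4304 CPM in other spots. In each section 5 spots held 35.95% to 49.4% of the members' Ttr UMIs. The 6 choroid plexus markers together were also highest in the old sections elsewhere. They summed to 98.5 and 131 CPM in young and 250 and 222 in old relay spots. In other spots they summed to 3531 and 2671 CPM in young and 4355 and 4102 in old sections.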
